A study of Mus musculus with 9 samples.

Results

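The genes described here carry natriuretic peptide and cGMP signaling: the kinases *Prkg1* and *Prkg2*, the receptors *Npr1*, *Npr2* and *Npr3*, the ligand *Nppc* and the phosphodiesterase *Pde5a*. These 7 genes, of 55416 in the deposited tables, were matched by symbol. *Prkg2* was chosen by its response to both phosphates in these same libraries, so its differences between conditions are a description and carry no p-value. The other 6 genes were chosen by their role in the pathway, though with earlier results of these data known. All libraries came from MC3T3-E1 cells, an established wild-type murine pre-osteoblastic line from calvarial bone and a single subclone, which had been differentiated towards osteocyte-like cells in αMEM with serum, ascorbic acid, dexamethasone and 10 mM β-glycerophosphate (BGP). Each condition had 3 libraries. The paper describes withdrawal of BGP from the medium before the treatment, whereas the labels give osteogenic medium with BGP for 27 days. Which of these applies to the sequenced cultures is not known, so BGP from the medium may have been present in every condition. It also states that the αMEM itself held sodium phosphate in every condition. At day 27 the cells received 4 mM BGP, an organic phosphate, or 4 mM NaHPO4 for 16 h, and Control received neither of these additions. NaHPO4 is a mixture of Na2HPO4 and NaH2PO4 and thus inorganic phosphate. RNA was taken at day 28. The labels do not say whether the 3 libraries of a condition are separate experiments, so p-values measure the spread among these libraries, which may be technical. The question put to the counts was whether the ligand, receptor, kinase and phosphodiesterase genes of the pathway changed beside *Prkg2*, and whether organic and inorganic phosphate differed in this.

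C-type natriuretic peptide, the product of *Nppc*, binds the receptor encoded by *Npr2*, a membrane guanylate cyclase that makes cGMP inside the cell. cGMP activates the protein kinases encoded by *Prkg1* and *Prkg2* and is broken down by phosphodiesterases, of which the product of *Pde5a* is specific for cGMP. *Npr1* encodes the cyclase for the atrial and brain peptides, and *Npr3* a clearance receptor without a cyclase domain that removes all of them. In the skeleton the pathway is best known from the growth plate, where loss of *Npr2* or *Prkg2* in mice gives short bones, and *Prkg2* also acts in osteoblasts. Prkg1 protein occurs in α and β isoforms from alternative first exons, while *Prkg2* encodes a myristoylated, membrane-bound kinase.

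Promoter sequence is shown for the ligand without counts and for the kinase gene with alternative starts, since the gene-level counts of *Prkg1* join both starts. RefSeq promoters (GRCm38.p6) were matched for 6 of the 7 genes, not for *Prkg2*. *Nppc* is shown from 250 to 21 bases before its start at chr1:86670594-86670823, and *Prkg1* from 250 to 51 bases before each start at chr19:31765084-31765283 and chr19:31664421-31664620, all on the minus strand. Each runs 5′ to 3′, and capitals mark a TATA box, CCAAT box or GC box on either strand.
Nppc: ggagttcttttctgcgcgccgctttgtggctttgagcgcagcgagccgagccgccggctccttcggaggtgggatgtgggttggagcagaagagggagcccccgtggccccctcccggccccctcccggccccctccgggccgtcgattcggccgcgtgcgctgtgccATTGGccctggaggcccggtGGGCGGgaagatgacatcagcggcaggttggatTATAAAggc
Prkg1, first start: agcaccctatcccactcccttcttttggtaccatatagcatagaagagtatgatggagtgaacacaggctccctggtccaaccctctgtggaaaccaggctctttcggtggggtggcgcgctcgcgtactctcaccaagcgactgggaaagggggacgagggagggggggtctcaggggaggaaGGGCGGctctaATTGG
Prkg1, second start: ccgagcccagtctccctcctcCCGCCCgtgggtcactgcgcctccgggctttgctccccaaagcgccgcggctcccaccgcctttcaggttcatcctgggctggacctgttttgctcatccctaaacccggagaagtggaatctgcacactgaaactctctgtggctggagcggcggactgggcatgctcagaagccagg
TATAAA, the TATA box, was found among the 6 genes in *Nppc* alone, 29 to 24 bases before the start, and occurs in 12.4% of all 32851 promoter windows of 250 bases. CCAAT was found in *Nppc*, in the first *Prkg1* window, in *Npr1* and in *Npr3*, and in 33.8% of all windows. GGGCGG, the GC box, was found in *Nppc*, both *Prkg1* windows, *Npr1* and *Pde5a*, and in 32.7% of all windows. GCGNGGGCG, the site of EGR factors, was found in *Npr1* alone, where it overlaps 2 GC boxes, and in 4.7% of all windows. The AP-1 motif TGANTCA and the cAMP response element TGACGTCA, present in 6.75% and 1.55% of all windows, were not found in these windows, and the *Npr2* window held no match to any of the 6 motifs. The *Nppc* window was 69.2% G and C with 24 CG dinucleotides, against medians of 52.4% and 6 over all windows.

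Total counts per library were between 21390839 and 28234404, and no library repeated another: between replicates, chi-square divided by its degrees of freedom lay from 2.64 to 4.88. Levels are given as CPM, the counts scaled to the library size, after TMM normalization. Differences are log2 fold changes (log2FC) with standard error (SE) from edgeR's quasi-likelihood fit of all 9 libraries and 13679 genes, and the adjusted p is the Benjamini-Hochberg value over those genes. Of the 11 osteoblast and osteocyte markers, all passed the filter on low counts, and their summed level lay between 97100 and 117000 CPM, whereas the 4 endothelial markers summed to at most 0.187 CPM, *Myod1* and *Myog* had no counts, and 4 of the 5 adipocyte markers and 4 of the 5 haematopoietic and osteoclast markers averaged under 1 CPM. The remaining marker of each of these lists was counted, with *Des* (muscle) at 7.32 to 10.1 CPM, *Fabp4* (adipocyte) at 9.75 to 15.5 CPM and *Ctsk* (osteoclast) at 249 to 295 CPM. Of the chondrocyte markers, *Col2a1* was counted at 142 to 403 CPM. In bulk RNA, fewer cells of a type and less RNA per cell cannot be told apart.

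The ligand *Nppc* had 0 counts in each of the 9 libraries, which allows a level of up to 0.106 to 0.14 CPM depending on the library (3 counts, counting error only). No fold change can be given for it. The gene lies at chr1:86594013-86598301 (GRCm39, minus strand), with 3 exons and 1050 exonic bases, and no other annotated gene overlaps its exons. The listed ligands for the same receptors were hardly counted either. *Ostn*, which encodes osteocrin, a ligand of the clearance receptor, had 4 counts in BGP replicate 1 and 0 in the other 8 libraries. Of the remaining ligand genes, named after their values were seen, *Nppa* had 0 counts and *Nppb* had 2 counts in all libraries together.

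*Npr2*, the cyclase receptor for C-type natriuretic peptide, was the most highly expressed of the 7 genes per exonic length and was slightly lower with NaHPO4. It was counted at 114, 115 and 110 CPM in Control, 107, 103 and 115 CPM in BGP and 101, 102 and 101 CPM in NaHPO4. The NaHPO4 libraries all lay below those of Control and of BGP, and the BGP and Control libraries overlapped. Compared to control, *Npr2* fell by 0.16 on the log2 scale with NaHPO4 (SE 0.0401, adjusted p = 0.0105), a change of -10.2%. Without Control replicate 1, the adjusted p was 0.0528 and the log2FC -0.15. The log2FC of BGP compared to control was -0.06 (SE 0.0404, adjusted p = 0.563), and that of BGP compared to NaHPO4 was 0.10 (SE 0.0403, adjusted p = 0.201). In the same comparison of NaHPO4 with control, 5 of the 11 osteoblast and osteocyte markers fell and 1 rose. Of all tested genes, 7.38% were called in either direction. The summed level of the marker list was between 110000 and 117000 CPM in Control and between 97100 and 104000 CPM in NaHPO4. Most of this sum was *Col1a1* and *Col1a2*, which averaged 43300 and 56400 CPM in Control and 37300 and 50200 CPM in NaHPO4. The part of these markers in the result for *Npr2* was not tested. *Npr2* spans chr4:43631339-43651436 (GRCm39, plus strand) with 22 exons. It overlaps *Spag8*, which had 6 to 16 counts per library, and an annotated miRNA gene on the same strand (ENSMUSG00002075231) with 5 to 25 counts; whether counting used strand is not given in the sources used here.

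The other receptors were low. *Npr3*, the clearance receptor, had 56, 94 and 83 counts in Control, 60, 54 and 82 in BGP and 60, 114 and 108 in NaHPO4. These are levels of 2.62, 4.09 and 3.27 CPM in Control, 2.71, 2.43 and 3.52 CPM in BGP and 2.18, 4.00 and 4.22 CPM in NaHPO4. The 3 conditions overlapped, and no difference passed the test: the log2FC was -0.20 (SE 0.219, adjusted p = 0.753) for BGP and 0.05 (SE 0.208, adjusted p = 0.928) for NaHPO4 compared to control, and -0.26 (SE 0.214, adjusted p = 0.609) between the phosphates. *Npr1*, the cyclase receptor for the atrial and brain peptides, had 1, 2 and 3 counts in Control, 2 in each BGP library and 5, 1 and 3 in NaHPO4. It did not pass the filter on low counts and was not tested, and a difference was not detectable at this depth. *Npr3* lies at chr15:11839982-11907373 and *Npr1* at chr3:90356458-90373748 (GRCm39, both minus strand).

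*Pde5a*, the cGMP-specific phosphodiesterase, was counted at a low level without a change that could be tested with any precision. Its counts were 13, 15 and 22 in Control, 5, 9 and 28 in BGP and 12, 23 and 16 in NaHPO4, or 0.608, 0.653 and 0.866 CPM, 0.226, 0.404 and 1.2 CPM, and 0.437, 0.807 and 0.625 CPM. BGP held both the lowest and the highest library. The log2FC was -0.21 (SE 0.448, adjusted p = 0.902) for BGP and -0.19 (SE 0.434, adjusted p = 0.87) for NaHPO4 compared to control, and -0.02 (SE 0.447, adjusted p = 0.994) between them. *Pde5a* spans chr3:122522594-122653023 (GRCm39, plus strand) with 21 exons.

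**Figure D1:**
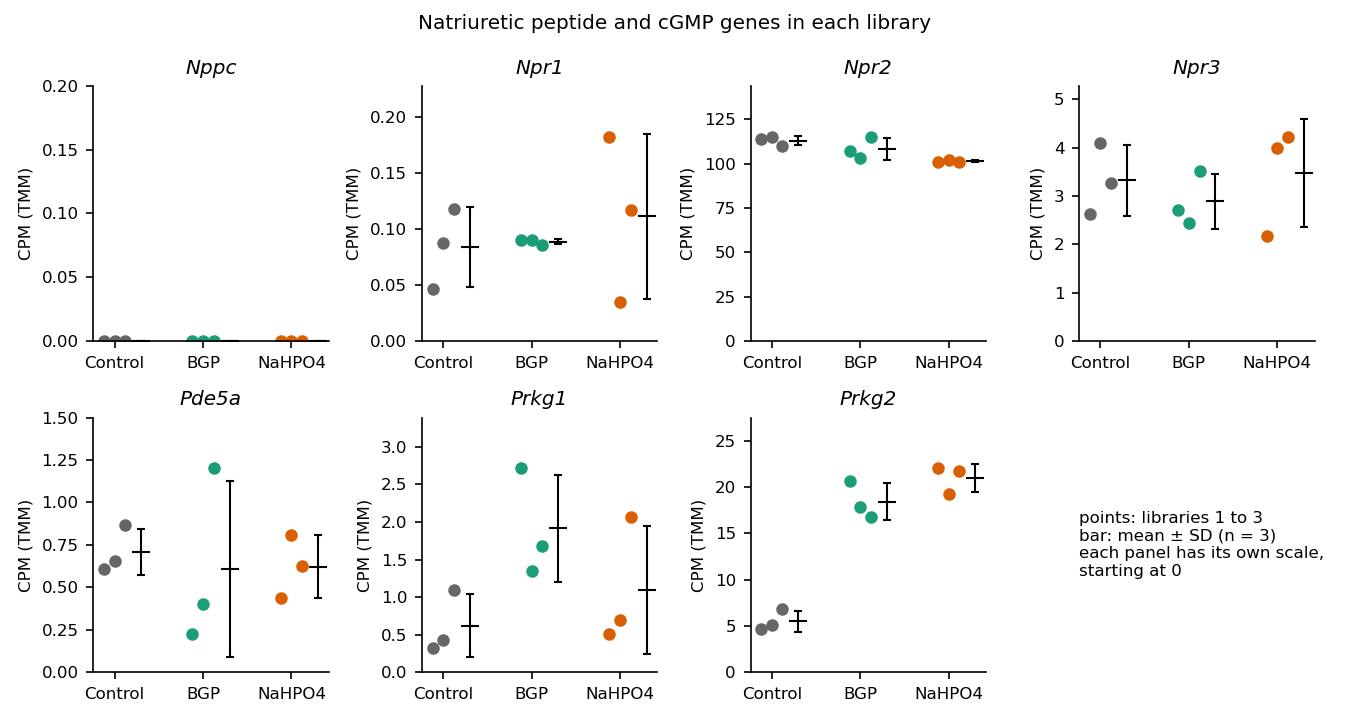
Level of the 7 genes in each library, in TMM-normalized CPM on the vertical axis, with a separate linear scale from 0 in each panel. Points are libraries of Control, BGP and NaHPO4, and the bar beside them is the mean ± SD (n = 3); the *Prkg2* libraries of both phosphates sit between 16.8 and 22 CPM, above 4.63 to 6.81 CPM in Control.

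*Prkg2*, the membrane-bound cGMP-dependent kinase, was higher with both phosphates. Its counts were 99, 118 and 173 in Control, 459, 396 and 390 in BGP and 605, 546 and 555 in NaHPO4. This corresponds to 4.63, 5.13 and 6.81 CPM in Control, 20.7, 17.8 and 16.8 CPM in BGP and 22, 19.2 and 21.7 CPM in NaHPO4. Each of the 6 phosphate libraries lay above the 3 Control libraries, and BGP and NaHPO4 overlapped each other. The means were 5.52 ± 1.14, 18.4 ± 2.04 and 21 ± 1.56 CPM (SD, n = 3), and the level was 3.30-fold that of control with BGP (log2FC 1.72, SE 0.112) and 3.76-fold with NaHPO4 (log2FC 1.91, SE 0.109). Between the phosphates the log2FC of BGP compared to NaHPO4 was -0.19 (SE 0.0917). Over the 17 alternatives of the processing, these values stayed between 1.62 and 1.91 for BGP, between 1.80 and 2.10 for NaHPO4 and between -0.28 and -0.12 between them. These values are those by which *Prkg2* was chosen and are therefore given without a test. *Prkg2* spans chr5:99076863-99185470 (GRCm39, minus strand) with 19 exons. In the later annotation used here, a lncRNA gene on the opposite strand overlaps its exons. None of the 50-base windows of the *Prkg2* transcripts (0%) occurred in transcripts of other genes.

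*Prkg2* is known from chondrocytes, so markers of that cell type were read beside it. *Acan*, which encodes aggrecan, averaged 0, 0.015 and 0.0238 CPM in Control, BGP and NaHPO4. Of the 6 chondrocyte markers, 4 were tested. With BGP, 1 rose (*Col2a1*) and 1 fell (*Comp*), against 2.53% of all tested genes called in either direction. With NaHPO4, 2 fell (*Col2a1* and *Comp*), against 7.38% of all tested genes called. *Comp* was thus lower with both phosphates, with log2FC of -0.44 for BGP and -0.49 for NaHPO4 compared to control. *Col10a1* and *Sox9* were tested and not called. *Col10a1* averaged 0.232, 0.594 and 0.423 CPM in Control, BGP and NaHPO4, with overlapping libraries. Its log2FC compared to control was 1.27 (SE 0.582) with BGP and 0.81 (SE 0.598) with NaHPO4. The adjusted p in edgeR's quasi-likelihood test was 0.321 and 0.501. That of *Sox9* was 0.03 and -0.07 in log2FC. *Col2a1*, which encodes type II collagen, differed in direction between the phosphates, with means of 242 CPM in Control, 342 CPM in BGP and 177 CPM in NaHPO4. The summed level of the list was between 261 and 325 CPM in Control, between 351 and 457 CPM in BGP and between 196 and 277 CPM in NaHPO4. The sum thus lay above Control in all BGP libraries and overlapped Control in NaHPO4, and most of it was *Col2a1*. Its part in the values of *Prkg2* was not tested.

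*Prkg1*, the other cGMP-dependent kinase, was lower than *Prkg2* per exonic length and rose with BGP. It had 7, 10 and 28 counts in Control, 60, 30 and 39 in BGP and 14, 20 and 53 in NaHPO4, or 0.327, 0.435 and 1.10 CPM, 2.71, 1.35 and 1.68 CPM, and 0.510, 0.702 and 2.07 CPM. The BGP libraries all lay above Control, whereas NaHPO4 overlapped both, with its replicate 3 above 2 of the BGP libraries. The log2FC of BGP compared to control was 1.57 (SE 0.42), a 2.97-fold level, with adjusted p = 0.0333 in edgeR's quasi-likelihood test. This call rests on few counts: leaving out Control replicate 1, Control replicate 2 or BGP replicate 1 gave an adjusted p of 0.188, 0.149 or 0.268 and a log2FC of 1.28, 1.36 or 1.24, leaving out Control replicate 3 gave a log2FC of 2.3 with adjusted p = 0.00542, and DESeq2's Wald test gave an adjusted p of 0.325 at a log2FC of 1.61. With NaHPO4 the log2FC was 0.75 (SE 0.444, adjusted p = 0.366), and without NaHPO4 replicate 3 it was -0.07. The difference between BGP and NaHPO4 itself was 0.82 (SE 0.378, adjusted p = 0.254), and without NaHPO4 replicate 3 it was 1.64 with adjusted p = 0.0145. Thus a response of *Prkg1* particular to BGP was not shown with all libraries. The gene spans chr19:30541889-31742479 (GRCm39, minus strand) with 18 exons, and 0.018% of its 50-base transcript windows occurred in other genes.

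**Figure D2:**
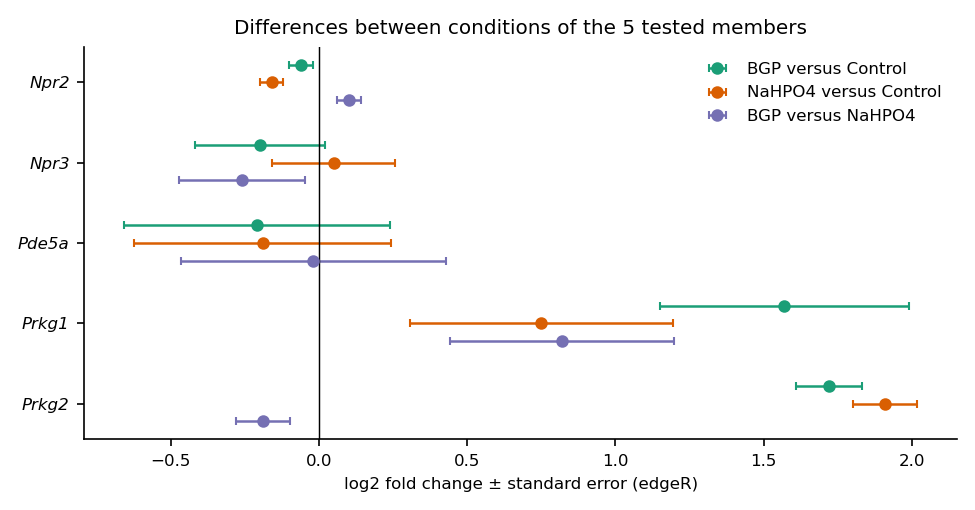
Log2 fold change (horizontal axis) ± SE of the 5 genes that passed the filter, for BGP versus Control, NaHPO4 versus Control and BGP versus NaHPO4. *Prkg2* stands at 1.72 and 1.91 for the comparisons with Control, *Prkg1* at 1.57 and 0.75 with wider errors, and *Npr2*, *Npr3* and *Pde5a* lie between -0.26 and 0.10 in all 3 comparisons.

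Beside *Prkg2*, 4 of the 7 genes were tested. In BGP compared to control, 1 of these 4 passed an adjusted p of 0.05 (*Prkg1*, higher), against 2.53% of all tested genes, and it also had an absolute log2FC above 0.5, as 0.556% of all tested genes did. In NaHPO4 compared to control, 1 of the 4 passed (*Npr2*, lower), against 7.38% of all tested genes, but with an absolute log2FC under 0.5; 0.716% of all tested genes were called with a larger one. Between BGP and NaHPO4, edgeR's quasi-likelihood test called none of the 4. Of all tested genes, 5.38% were called, and 0.585% were called with an absolute log2FC above 0.5. An unadjusted p under 0.05 in that test was reached by 2 of the 4, against 2316 of all 13679 genes. DESeq2's Wald test and edgeR's likelihood ratio test each called 0 of the 4. Non-overlapping libraries were seen in *Prkg1* for BGP compared to control (18.5% of all tested genes), in *Npr2* for NaHPO4 compared to control (23.2%) and in *Npr2* between the phosphates (21.2%). Both comparisons with control share the 3 Control libraries.

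Per kilobase of annotated exon, the order of the mean levels in Control was *Npr2* at 10.7, *Prkg2* at 0.845, *Npr3* at 0.267, *Pde5a* at 0.0663, *Prkg1* at 0.0561, *Npr1* at 0.0116 and *Nppc* at 0 CPM per kb. *Npr2*, *Prkg2* and *Npr3* did not overlap in their libraries, while *Pde5a* (0.0568 to 0.081) and *Prkg1* (0.0295 to 0.0995) did. In BGP the order was *Npr2* at 10.3, *Prkg2* at 2.82, *Npr3* at 0.232, *Prkg1* at 0.172 and *Pde5a* at 0.0571 CPM per kb. In that condition *Npr3* (0.195 to 0.284) and *Prkg1* (0.122 to 0.244) overlapped. In NaHPO4 it was *Npr2* at 9.61, *Prkg2* at 3.21, *Npr3* at 0.279, *Prkg1* at 0.0987 and *Pde5a* at 0.0583 CPM per kb, where *Prkg1* (0.046 to 0.187) overlapped both *Npr3* (0.176 to 0.339) and *Pde5a* (0.0408 to 0.0755). Lengths are the union of all annotated exons, so a gene with many rarely used exons is understated. Among the tested genes with a length, 77.5% were below *Npr2* in Control, 20.5% below *Prkg2*, 8.55% below *Npr3*, 1.27% below *Pde5a* and 0.8% below *Prkg1*.

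The wider pathway was read from a list of 63 genes in 9 roles, which includes the 7 genes above. Of these, 15 had 0 counts in all libraries, 37 including those were below the filter, and 26 were tested. Of the 21 tested genes other than the 7, edgeR's quasi-likelihood test called none in BGP or in NaHPO4 compared to control. Over all tested genes the shares called were 2.53% and 7.38%. Between the phosphates the same test called 2 of the 21 (*Gtf2i* and *Vasp*), against 5.38% of all tested genes. An unadjusted p under 0.05 in that test was reached by 4 and 3 of the 21 compared to control, and by 5 between the phosphates. Over all 13679 tested genes it was reached by 1831, 2728 and 2316. DESeq2's Wald test called 0 and 0 compared to control, and edgeR's likelihood ratio test 1 (*Pde6d*, lower) and 0. Between the phosphates each of these tests called 2. Of the 21 genes, the 16 above 10 CPM changed by at most 0.21 (log2) with BGP and 0.13 with NaHPO4. With the less counted genes included, the largest change was 0.41 with BGP (*Gucy1a1*, lower) and 0.36 with NaHPO4 (*Cngb1*, lower). The median log2FC of the 26 tested genes was -0.011 for BGP, -0.052 for NaHPO4 and 0.002 between the phosphates, against -0.004, 0 and -0.002 over all tested genes.

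**Figure D3:**
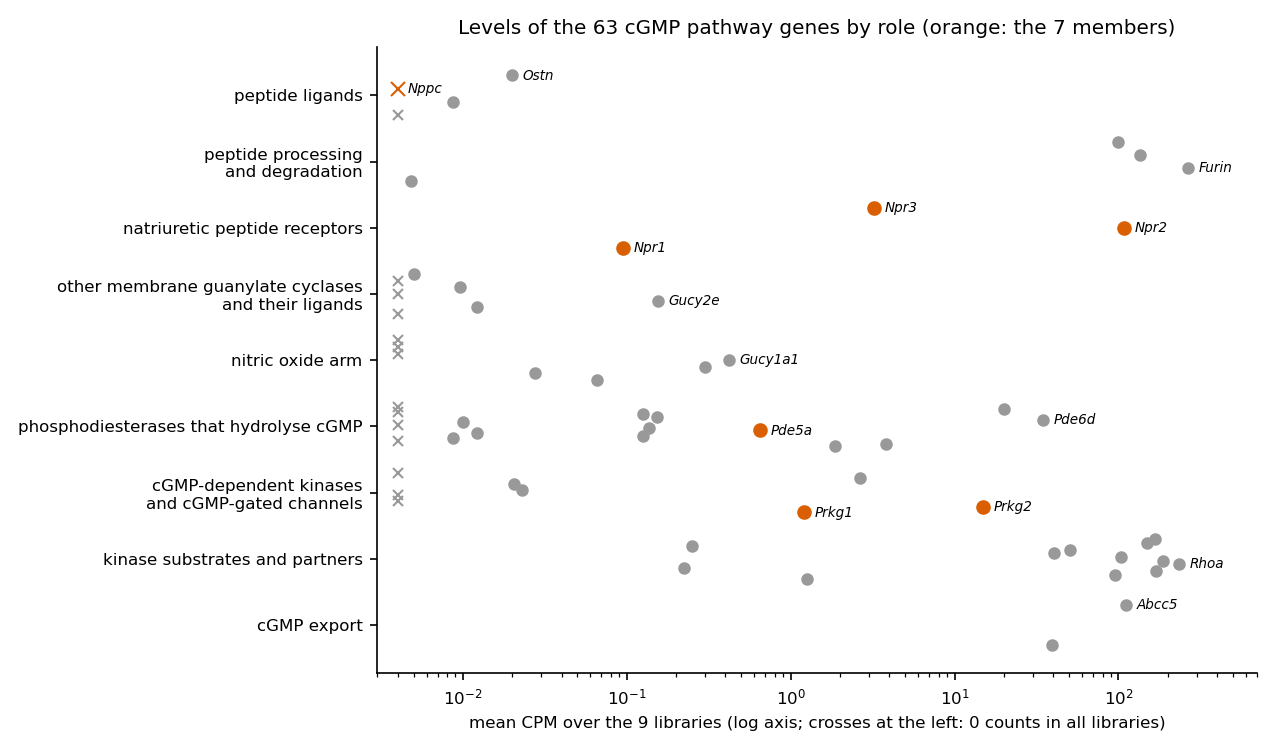
Mean CPM over the 9 libraries (log axis) of the 63 listed genes by role, with the 7 members in orange, and crosses at the left edge for the 15 genes with 0 counts in all libraries. *Npr2* is the only receptor above 10 CPM, and the 4 peptide ligands are at or near 0.

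Peptide processing was represented by *Furin*, the proprotein convertase that cleaves the C-type peptide precursor, at 266 ± 20.3 CPM in Control, 270 ± 4.97 CPM in BGP and 262 ± 10.4 CPM in NaHPO4. Its libraries overlapped in all comparisons. The other 2 tested genes of that role, the peptidases *Mme* and *Ide*, had log2FC between -0.08 and 0.02 in the 3 comparisons.

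None of the 7 listed genes for other membrane guanylate cyclases and their ligands passed the filter, and 3 had no counts. The highest was *Gucy2e*, a retinal cyclase, with 5, 2 and 4 counts in Control, 0, 4 and 2 in BGP and 10, 4 and 4 in NaHPO4. In the nitric oxide arm 1 of 7 genes was tested. This was *Gucy1a1*, the α1 subunit of soluble guanylate cyclase, at 0.608, 0.305 and 0.512 CPM in Control, 0.316, 0.629 and 0.129 CPM in BGP and 0.364, 0.386 and 0.547 CPM in NaHPO4. The conditions overlapped. *Gucy1b1*, the β1 subunit with which it forms the enzyme, had 0 counts in every library, which allows up to 0.106 to 0.14 CPM; it was named after its value was seen.

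Of the 16 phosphodiesterase genes, 5 were tested, including *Pde5a*. The most highly counted was *Pde6d*, which encodes the prenyl-binding δ protein first found with the retinal enzyme and has no catalytic site. It had 35.3, 38.0 and 37.1 CPM in Control, 31.3, 30.4 and 33.9 CPM in BGP and 32.9, 37.0 and 37.7 CPM in NaHPO4. BGP lay below Control in all libraries, with log2FC -0.21 and an adjusted p of 0.0601 in edgeR's quasi-likelihood test. It was called lower with no filter on low counts, by the likelihood ratio test and when only the 2 groups compared were fitted. The same held with the replicate block, without BGP replicate 3 and without NaHPO4 replicate 1. DESeq2's Wald test and the remaining alternatives did not call it. Among the catalytic enzymes, named after their values were seen, *Pde10a* averaged 20.1, 19.9 and 19.9 CPM in Control, BGP and NaHPO4.

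Of the cGMP-gated channel genes only *Cngb1*, a β subunit, was tested. It averaged 2.85 ± 0.158 CPM in Control, 2.83 ± 0.567 CPM in BGP and 2.22 ± 0.223 CPM in NaHPO4, with a log2FC of -0.36 (SE 0.199, adjusted p = 0.32) for NaHPO4 compared to control. The export pumps *Abcc5* and *Abcc4* were both tested, and *Abcc5* averaged 116 ± 5.77, 109 ± 6.45 and 110 ± 4.05 CPM, with overlapping libraries.

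The substrates and partners of the kinases held the remaining calls, both between the phosphates. *Vasp*, an actin regulator and a classical substrate of cGMP-dependent kinase, had 96.2, 97.5 and 92.5 CPM in Control, 102, 97.2 and 99.7 CPM in BGP and 82.7, 89.9 and 95.2 CPM in NaHPO4. BGP lay above NaHPO4 in all libraries, and Control overlapped both. It was higher in BGP than in NaHPO4 by a log2FC of 0.16 (SE 0.0434, adjusted p = 0.0233), but scaling to total counts gave 0.13 with adjusted p = 0.0767. Without BGP replicate 1, BGP replicate 3, NaHPO4 replicate 1 or NaHPO4 replicate 2 the adjusted p was 0.121, 0.0714, 0.185 or 0.0614. *Gtf2i*, which encodes the transcription factor TFII-I, had 192, 181 and 190 CPM in Control, 197, 197 and 191 CPM in BGP and 179, 186 and 174 CPM in NaHPO4. Its log2FC between BGP and NaHPO4 was 0.12 (SE 0.0358, adjusted p = 0.0459), and it was not called with total counts (adjusted p = 0.153) or without Control replicate 1 (0.0514), Control replicate 3 (0.0504), BGP replicate 1 (0.156), BGP replicate 2 (0.144), BGP replicate 3 (0.0605), NaHPO4 replicate 1 (0.0908) or NaHPO4 replicate 3 (0.215). The 2 genes had not passed in either comparison with control. *Rhoa*, a small GTPase phosphorylated by the kinases and the most highly counted gene of this role, averaged 232 ± 7.93, 232 ± 5.49 and 236 ± 2.5 CPM, with overlapping libraries. *Sox9*, a chondrocyte transcription factor on which the *Prkg2* product acts in the growth plate, averaged 40.8, 41.5 and 38.7 CPM in Control, BGP and NaHPO4, with log2FC of 0.03 and -0.07 compared to control.

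The tested genes whose log2 CPM over the 9 libraries was most like that of *Prkg2* were *Emp1* (Pearson's r 0.989), *Spp1* (0.979), *Lss* (0.976), *Etv4* (0.971), *Axl* (0.970) and *Cltc* (0.968). These are correlations across 9 libraries in 3 conditions that all genes share, and are given without a p-value. *Etv4*, an ETS transcription factor, was near *Prkg2* in CPM level, at 4.67, 4.05 and 5.20 CPM in Control, 18.4, 17.7 and 15 CPM in BGP and 15.4, 12.1 and 16.8 CPM in NaHPO4. Its log2FC compared to control was 1.87 with BGP and 1.66 with NaHPO4. *Spp1*, the gene of osteopontin, had log2FC of 1.48 and 1.97, and averaged 1740, 4840 and 6790 CPM in Control, BGP and NaHPO4. The others moved less, and *Cltc*, the clathrin heavy chain, had a log2FC of 0.11 and 0.13 only. Deviations from the condition means also ran together, with r between 0.611 (*Cltc*) and 0.838 (*Emp1*) for the 6 genes; they were picked for their likeness over these same libraries. Scaling to total counts kept 3 of the 6 among the first 6, and Spearman's rank correlation kept 1. Of the other tested members, *Prkg1* had r 0.62 with *Prkg2*, *Npr3* -0.117, *Pde5a* -0.289 and *Npr2* -0.751. Counted from the highest r among the tested genes, these were ranks 1242, 7967, 9747 and 13243.

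**Figure D4:**
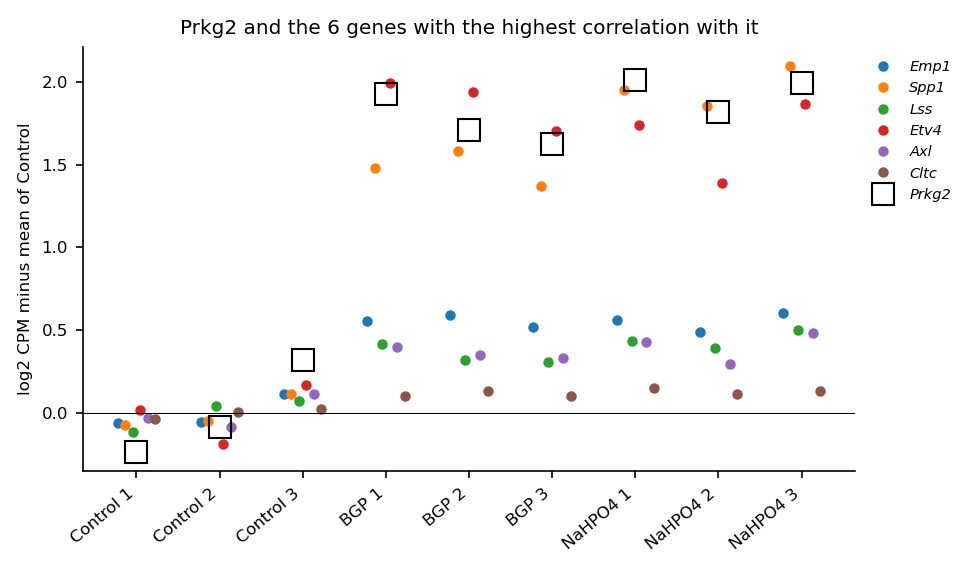
Log2 CPM minus the mean of the Control libraries (vertical axis) in each of the 9 libraries (horizontal axis), with open squares for *Prkg2* and coloured points for the 6 genes most correlated with it. *Etv4* and *Spp1* lie near *Prkg2* in the phosphate libraries, while *Emp1*, *Lss*, *Axl* and *Cltc* lie above the Control mean there by a smaller amount.

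The genes around *Prkg2* were read as well, a choice made after its values were seen. Within 1 Mb on either side, 34 annotated genes were in the tables and 7 of them passed the filter. Their log2FC was between -0.21 (*1700010H22Rik*) and 0.35 (*Mir703*) for BGP, with adjusted p between 0.311 and 0.972. With NaHPO4 the log2FC was between -0.02 (*Antxr2*) and 0.53 (*Gm17092*, adjusted p = 0.411 in edgeR's quasi-likelihood test). Of the 7, 1 was called, against 7.38% of all tested genes. This was *Hnrnpd*, which encodes an RNA-binding protein and lies 918 kb away, with a log2FC of 0.19 (adjusted p = 0.00249). The nearest listed protein-coding gene, *Bmp3*, 44.6 kb away, encodes a bone morphogenetic protein and had 5, 6 and 1 counts in Control, 3, 0 and 3 in BGP and 4, 2 and 3 in NaHPO4, below the filter.

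**Figure D5:**
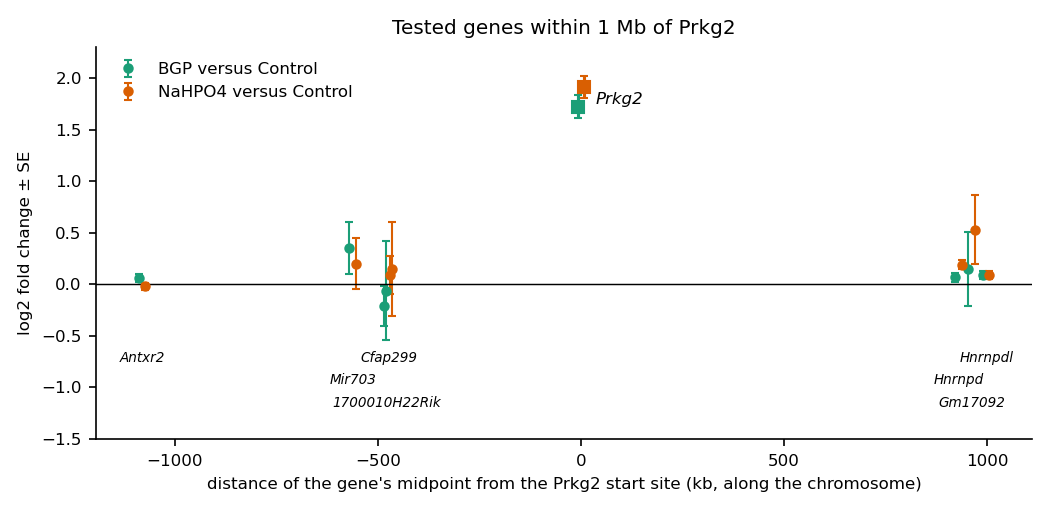
Log2 fold change ± SE (vertical axis) of the 7 tested genes within 1 Mb of *Prkg2* against the distance of their midpoint from its start site in kb (horizontal axis), for BGP and NaHPO4 compared to control. The squares for *Prkg2* are at 1.72 and 1.91, and the neighbours are between -0.21 and 0.53.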

How the data were processed

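RNA of MC3T3-E1 cells was sequenced from stranded poly(A) libraries as pairs of 50 bases, in 3 libraries each of Control, BGP and NaHPO4. With the AIR software, the authors mapped reads to the GRCm39 build (Ensembl release 104). They deposited whole-number read counts per gene without normalization, which were used for all values here. The authors also deposited a TMM-scaled signal, each library's counts times a single factor between 1.01 and 1.322, used here only for gene symbols. The aligner, the counting program and the use of strand are not given in the sources used here. The methods describe withdrawal of BGP from the medium before the treatment, which the labels do not mention.

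Groups and replicate numbers came from the labels. With edgeR 4.0.16, genes were kept by filterByExpr (count minimum 10), scaled by TMM and fitted in 1 model of the 9 libraries with glmQLFit. Each of 3 comparisons was tested by glmQLFTest, adjusting p by Benjamini-Hochberg over 13679 genes, with DEGs at an FDR under 0.05 and an absolute log2FC above 0.5. Standard errors came from the F statistic. At the total of 21390839 to 28234404 counts per library, 3 counts correspond to 0.106 to 0.14 CPM; limits from counts cover counting error only. Correlations were taken on log2 CPM (prior count 2). On simulated counts for BGP versus Control (13515 genes), changes were placed only in genes averaging above 1 CPM. Of these, 42 of 50 genes changed 1.5-fold, 49 of 50 changed 2-fold or 3-fold and 50 of 50 changed 4-fold were recovered. There were 4 false calls and 0 calls without a change. The recovery does not cover lower genes such as *Pde5a*. Positions and exon lengths came from GENCODE vM39 of GRCm39, a later release than that used for counting; all 63 listed genes were found in the tables. Software was R 4.3.3, DESeq2 1.42.0, Python 3.11.15 with pandas 2.3.3, and for plots matplotlib 3.10.9.

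The members and lists were chosen with earlier results of these data known. All 7 members were named, with the pathway genes past an FDR of 0.05 in a comparison, the most highly counted pathway gene of each role and the 6 genes most correlated with *Prkg2*; other genes were named after their values were seen. Alternatives were DESeq2's size factors, total counts, no filter, at least 10 counts in every library, DESeq2's Wald test, edgeR's likelihood ratio test, only the 2 groups compared, a replicate block, no minimum log2FC, Spearman's correlation and each library left out.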

Additional observations from a re-analysis of the deposited data

How the results depend on the processing

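Of 351 values of the log2FC of 5 members, *Vasp* and *Gtf2i* under an alternative, 321 kept their direction and their side of the threshold (for *Prkg2*, they stayed within the spread of the libraries), 19 lost a call, 1 gained a call and 10 changed direction. The changes of direction came from leaving out libraries. So treated, *Prkg1* ranged from -0.07 to 1.48 for NaHPO4 compared to control, *Npr3* from -0.10 to 0.30 in that comparison, and *Pde5a* from -1.17 to 0.18 for BGP, from -0.43 to 0.01 for NaHPO4 and from -0.98 to 0.37 between the phosphates. The cause was not tested. *Prkg1* and *Pde5a* had fewer than 10 counts in a library and gave no value when at least 10 counts were required in every library.

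Of the 26 tested pathway genes, 2 passed an FDR of 0.05 in each comparison, against 2.53%, 7.38% and 5.38% of all tested genes for BGP, NaHPO4 and between them; in both comparisons with control, 1 of the 2 is *Prkg2*, which was chosen by these values. For BGP compared to control this was 1 with at least 10 counts in every library, 1 with DESeq2's Wald test, 1 to 3 without a library, and 3 with no filter, the likelihood ratio test, the replicate block or only the 2 groups compared, each adding *Pde6d* (lower). For NaHPO4 it was 1 to 3 without a library. Between the phosphates it was 1 with total counts, where *Pde6d* was called and *Vasp* and *Gtf2i* were not, and 0 to 2 without a library. Scaling to total counts kept 3 and Spearman's correlation 1 of the 6 genes most like *Prkg2*.

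Over all genes, 76, 98 and 80 DEGs were called in the 3 comparisons (BGP and NaHPO4 compared to control, and between them), and 346, 1009 and 736 without a minimum log2FC. The likelihood ratio test gave 159 for NaHPO4 and 122 between the phosphates. With total counts, the DEGs higher in BGP than in NaHPO4 were 46 and the lower ones 42, against 52 and 28 with TMM. Without a minimum log2FC, total counts gave 777 genes higher and 413 lower in NaHPO4 than in Control, against 469 and 540 with TMM, and 322 higher and 494 lower in BGP than in NaHPO4, against 456 and 280.

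The labels share replicate numbers between conditions. Same-numbered libraries deviated together weakly at most, with correlations between -0.0092 and 0.0426, against -0.0456 to 0.0239 for different numbers, so they were not paired. Between Control and NaHPO4, the same-numbered pairs (0.0302, 0.0426 and 0.0409) all lay above the differently numbered pairs. With the replicate block, 76, 101 and 87 DEGs were called. The pathway count between the phosphates was then 1, without *Gtf2i* (adjusted p = 0.0558), while that for BGP compared to control was 3, with *Pde6d* added. For *Prkg1*, which had few counts, the block gave a log2FC of 1.68 for BGP compared to control (quasi-likelihood test, adjusted p = 0.00982). Depth limits *Nppc*, *Npr1*, *Pde5a* and *Prkg1* most.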

Other observations

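*Nos1*, the neuronal nitric oxide synthase gene of the pathway list, was below the filter and was picked after its values were seen. It had 13 counts in NaHPO4 replicate 1, 2 in NaHPO4 replicate 3, 1 in BGP replicate 3 and 0 in the other 6 libraries, so its level rests on a single library. *Nos3*, the endothelial synthase gene, also below the filter, had 5, 1 and 8 counts in Control, 9, 9 and 6 in BGP and 3, 19 and 7 in NaHPO4, with overlapping conditions.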
